A study of Arabidopsis thaliana with 8 samples.

Results

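Transcripts of 10 Arabidopsis thaliana genes for seed oil body coats and seed storage proteins were followed in whole seedlings given abscisic acid or its breakdown products. The genes were named by locus and looked up in the comparison tables. They were the oleosins OLEO1, OLEO2, OLEO3 and OLEO4, the caleosins RD20 and CLO1, the 2S albumins SESA1, SESA2 and SESA3, and the 12S globulin CRA1. All 10 were found, of 32678 genes in the tables. The rule names the loci and holds no measured value, but it was written with earlier results of these data known.

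During seed filling, oil is packed into droplets whose surface is coated by oleosins, small proteins with a long hydrophobic hairpin that keep the droplets from fusing, and by caleosins, which bind calcium and act as peroxygenases. The 2S albumins and 12S globulins fill the protein storage vacuoles and are broken down after germination. Abscisic acid (ABA) drives much of this programme in the maturing seed, through the bZIP factor ABI5 and the B3 factor ABI3, and the caleosin RD20 is also known from leaves, where drought and ABA induce it.

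The seedlings were wild type of the Columbia accession, 10 days old, raised on MS medium in continuous light. They received 50 μM of ABA, of phaseic acid (PA) or of dihydrophaseic acid (DPA) for 3 h, or a mock treatment whose length the labels do not state separately. PA is formed when a ring methyl group of ABA is hydroxylated and the ring closes onto it, and in DPA the ring ketone of PA has been reduced to an alcohol. Each of the 4 groups had 2 biological replicates, so that 8 libraries of polyadenylated RNA were read, with 11.5 to 15.9 reads on genes in units of 1e6. The comparisons with mock asked which of the 10 transcripts each compound moved, and those among the compounds, whose dose and time were matched, how far the responses to ABA and its catabolites differed.

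Values per library are normalized counts, that is reads divided by the size factor of the library, and the libraries of a group are called the deeper and the shallower. The leaf transcript RBCS3B, a Rubisco small subunit, had a mock mean of 35658 normalized counts and the root transcript PYK10, a beta-glucosidase, one of 30106 in the authors' deposited table, so both organs were represented. In whole seedlings, a change in the number of cells that hold a transcript and a change in its amount per cell cannot be told apart.

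The 250 bases before the annotated transcript starts of OLEO1, OLEO4 and RD20 are shown as examples because OLEO1 and RD20 lay above mock, and OLEO4 below it, in both ABA libraries. They were read from the TAIR10.1 genome, with starts from its RefSeq annotation, and are written in the direction of transcription. Capitals mark every ACGTG, the core of the ABA-responsive element bound by bZIP factors such as ABI5, and every CATGCA, the core of the RY element bound by B3 factors such as ABI3, on either strand. CACGTG holds an ACGTG on each strand and was counted as 1 place, and overlapping matches of a motif were likewise counted as 1 place.
OLEO1 (AT4G25140), chr4:12900180-12900429, plus strand: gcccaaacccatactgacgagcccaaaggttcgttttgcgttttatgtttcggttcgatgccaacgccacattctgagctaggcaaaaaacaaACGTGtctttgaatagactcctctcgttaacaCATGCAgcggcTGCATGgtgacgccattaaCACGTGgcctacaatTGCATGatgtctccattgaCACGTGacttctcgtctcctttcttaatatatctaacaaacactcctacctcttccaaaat
OLEO4 (AT3G27660), chr3:10242994-10243243, plus strand: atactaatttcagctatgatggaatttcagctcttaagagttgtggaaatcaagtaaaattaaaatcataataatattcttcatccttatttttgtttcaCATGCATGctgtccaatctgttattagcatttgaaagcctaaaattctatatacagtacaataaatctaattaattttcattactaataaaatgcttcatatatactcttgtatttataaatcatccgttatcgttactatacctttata
RD20 (AT2G33380), chr2:14146556-14146805, minus strand: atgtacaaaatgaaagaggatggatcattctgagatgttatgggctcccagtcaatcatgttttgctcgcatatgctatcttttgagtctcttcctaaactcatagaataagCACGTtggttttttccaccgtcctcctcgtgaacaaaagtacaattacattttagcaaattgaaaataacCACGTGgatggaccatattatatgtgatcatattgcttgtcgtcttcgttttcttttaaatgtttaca

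The region of OLEO1 held ACGTG at 3 places, starting 157, 95 and 61 bases before the transcript start, and that of RD20 held it at 2 places, 138 and 68 bases before the start. The region of OLEO4 held none. Of other members not called with ABA, OLEO3 held ACGTG at 3 places and SESA2 at 2. CLO1, SESA1 and SESA3 held it at 1 place each and CRA1 at none. CATGCA occurred at 3 places in OLEO1, at 1 in OLEO4, and at none in RD20. The other members not called with ABA held it too. It stood at 4 places in SESA3, at 3 in SESA2, at 2 each in OLEO3, SESA1 and CRA1, and at 1 in CLO1. Of 26711 upstream regions of 250 bases in the genome, 23.1% held ACGTG and 8.51% held CATGCA. A match is a run of letters and not a site of binding, and its tie to the response was not tested.

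With ABA, OLEO1, OLEO2 and RD20 rose and none of the 10 genes fell in the authors' deposited table, at an adjusted p under 0.05. Over all 24069 genes tested with ABA, 10.3% were called higher and 5.12% lower, against 3 and 0 of these 10. The limma fit to the recovered libraries called the same 3 genes, where it called 18% of all genes higher. It did not test OLEO3, CLO1 and SESA3, which lay under its minimum mean of 10 normalized counts. RD20 rose most, and the oleosins OLEO1 and OLEO2 rose by similar amounts. The median log2 fold change of the 10 genes was 0.53, beside -0.01 over all genes tested. Both ABA libraries lay above both mock libraries for OLEO1, OLEO2, RD20 and CLO1 and below them for OLEO4, and the libraries of the other 5 genes overlapped. Among 19617 genes that averaged 10 or more normalized counts, 32.6% had both ABA libraries above mock and 31.6% had both below it, and CLO1 itself averaged less than 10.

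**Figure D1:**
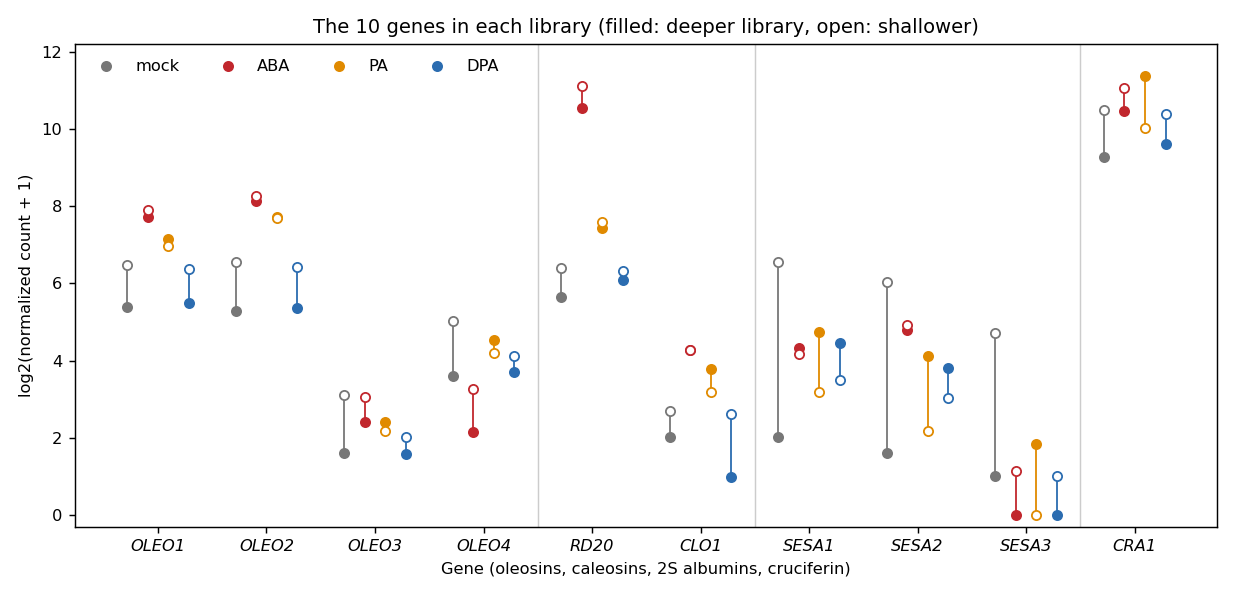
Each point is 1 library on the scale log2(normalized count + 1), with the deeper library of a group filled and the shallower open and a line joining them. OLEO1, OLEO2 and RD20 lie above mock with ABA and PA and within the mock range with DPA, while the mock points of SESA1, SESA2 and SESA3 are far apart.

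OLEO1 encodes a major oleosin of the Arabidopsis seed (chr4:12900430-12901577, plus strand, 2 exons). Its normalized counts were 40.9 and 88.3 in the mock libraries, 211 and 238 under ABA, 142 and 124 under PA, and 43.9 and 81.6 under DPA, the deeper library first. The ABA libraries were the highest and the PA libraries lay between them and mock, whereas the DPA range fell inside the mock range. In the authors' deposited table OLEO1 was 3.47-fold higher with ABA, a log2 fold change of 1.79 with an adjusted p of 1.38e-08 (DESeq). With PA the log2 fold change was 1.04 with an adjusted p of 0.249 in the authors' deposited table. In a limma fit to the libraries, the PA value was 1.13 with an adjusted p of 0.20, and among the limma settings run it was called only without the shallower mock library (1.68, adjusted p 0.015). Of the 908 exon bases of OLEO1, 44 lie within the span of AT4G25150 on the other strand, introns counted. For OLEO2, 15 of 925 lie within that of AT5G40410, also on the other strand. Nothing in the library protocol states that strand was kept.

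OLEO2, another seed oleosin (chr5:16173340-16174783, minus strand, 2 exons), followed OLEO1 closely in level and had the same order of groups. Its libraries held 37.8 and 93.8 normalized counts in mock, 281 and 306 under ABA, 209 and 205 under PA, and 39.9 and 85.7 under DPA. The ABA and PA ranges did not overlap with mock or with each other. OLEO2 rose with ABA by 2.16 on the log2 scale, with an adjusted p of 1.79e-14 (DESeq), in the authors' deposited table. It also rose with PA there, by 1.65 with an adjusted p of 1.90e-05. The limma fit gave 1.78 ± 0.41 (SE) for PA with an adjusted p of 0.067, which missed the threshold. Leaving out 1 library at a time moved that limma value between 1.13, without the deeper mock library, and 2.42, without the shallower one. Its coding sequence was 57.3% identical to that of OLEO1, with no shared run over 12 bases.

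OLEO4, also a seed oleosin (chr3:10243244-10245023, plus strand), had its lowest values with ABA, in contrast to OLEO1 and OLEO2, and passed no test. Its normalized counts were 11.2 and 31.6 in mock, 3.48 and 8.57 under ABA, 22.3 and 17.5 under PA, and 11.98 and 16.5 under DPA. Both ABA libraries lay below all libraries of the other groups. The limma value for ABA was -1.61 with an adjusted p of 0.052. The ABA value in the authors' deposited table was -1.83 on the log2 scale with an adjusted p of 0.414 (DESeq). It rested on 11 reads with ABA against 40 in mock, a ratio of 0.265 (95% counting interval 0.123 to 0.527). The interval covers counting error only and not the spread between the mock libraries, which held 11 and 29 reads. Without the deeper mock library limma called it lower (-2.32, adjusted p 0.012), as it did without the shallower ABA library (-2.16, adjusted p 0.044), and without the shallower mock library the value was -0.90 with an adjusted p of 0.28. OLEO2 and OLEO4 were the closest of the 4 oleosins by coding sequence after OLEO1 and OLEO3, with 70.6% and 74.2% of aligned bases identical.

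OLEO3, another seed oleosin, had few reads in all groups. It had 9 reads over both mock libraries, 11 under ABA, 8 under PA and 5 under DPA. The ratio of ABA to mock was 1.18 (95% counting interval 0.444 to 3.22), an interval that spans 1. It lay under the minimum mean of 10 normalized counts that the limma fit used.

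RD20, the caleosin known from drought-treated leaves (chr2:14144831-14146555, minus strand), had the largest called change of the 10 genes. It had 49.0 and 83.9 normalized counts in mock, 1492 and 2219 under ABA, 171 and 193 under PA, and 66.9 and 78.5 under DPA. The ABA libraries lay far above all others, those with PA were the next highest, and the DPA range fell inside that of mock. The mean rose from 66.5 ± 24.7 to 1856 ± 515 with ABA (SD, n = 2), which the authors' deposited table gives as 27.9-fold with an adjusted p of 9.75e-12 (DESeq). With PA it rose by 1.45 on the log2 scale with an adjusted p of 1.71e-05 in the authors' deposited table. The limma value for PA, 1.49 with an adjusted p of 0.016, lost its call without the deeper PA library (adjusted p 0.11) or the shallower one (adjusted p 0.17), where the lone library is taken to vary like those of the other groups.

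CLO1, the seed caleosin also called peroxygenase 1 (chr4:13473516-13475371, minus strand), had few reads, with higher values in the ABA and PA libraries than in mock. Its normalized counts were 3.06 and 5.45 in mock, 18.3 and 18.4 under ABA, 12.8 and 8.18 under PA, and 0.999 and 5.16 under DPA. The ABA and PA libraries lay above mock and the DPA libraries overlapped with it. The authors' deposited table gave a log2 fold change of 2.11 with an adjusted p of 0.103 for ABA (DESeq). The read ratio was 4.34 (counting interval 1.98 to 10.8, which covers counting error only). CLO1 lay under the minimum mean of the limma fit, and without that minimum limma called it higher with ABA (1.92, adjusted p 0.034).

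The storage protein genes were called in no comparison of the authors' deposited tables, and their replicates differed widely. SESA1, SESA2 and SESA3 lie side by side on chromosome 4 between 13607329 and 13612563, on the plus strand. In the authors' deposited table their log2 fold changes with ABA were -1.42, -0.24 and -4.41, with adjusted p-values of 0.911, 1 and 0.626 (DESeq).

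SESA1 had 3.06 and 93.8 normalized counts in mock, 19.1 and 17.1 under ABA, 25.7 and 8.18 under PA, and 21.0 and 10.3 under DPA. SESA2 had 2.04 and 64.3 in mock, 27.0 and 29.4 under ABA, 16.3 and 3.51 under PA, and 13.0 and 7.23 under DPA. In both genes the ABA libraries lay close together and inside the wide mock range. SESA3 had 1 and 23 reads in the mock libraries, and 1 read over both libraries with ABA, 3 under PA and 1 under DPA. Its reads thus came mainly from the shallower mock library, and its read ratio of ABA to mock was 0.0402 (counting interval 0.000977 to 0.246), which covers counting error only.

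The direction of SESA1 and SESA2 rested on which mock library was kept. Without the shallower mock library limma called both higher with ABA, with log2 differences of 2.23 for SESA1 (adjusted p 0.033) and 3.26 for SESA2 (adjusted p 0.010). Without the deeper mock library SESA1 was called lower (-2.31, adjusted p 0.022) and SESA2 had a value of -1.16 with an adjusted p of 0.26. With all libraries the limma value of SESA1 was -0.04 with an adjusted p of 0.99, against -1.42 in the authors' deposited table. That of SESA2 was 1.05 with an adjusted p of 0.54, of the opposite sign to the ratio of means in the authors' deposited table. The coding sequences of SESA2 and SESA3 were 94.1% identical and shared a run of 49 bases, just under the read length of 50, and every stretch of 50 exon bases in the 10 genes occurred once in the genome.

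CRA1, a 12S cruciferin (chr5:17756238-17758336, minus strand), was the most abundant of the 10 transcripts outside ABA. Its libraries held 623 and 1427 normalized counts in mock, 1417 and 2137 under ABA, 2647 and 1033 under PA, and 782 and 1345 under DPA. The ranges of all groups overlapped with mock, and the PA libraries were the farthest apart. The log2 fold change was 0.79 with ABA (adjusted p 0.508, DESeq) and 0.84 with PA (adjusted p 1) in the authors' deposited table. Without the shallower mock library limma called CRA1 higher with ABA, at 1.48 with an adjusted p of 0.043, and without the deeper one the value was 0.29 with an adjusted p of 0.70.

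The shallower mock library was higher than the deeper one for all 10 genes. On the scale log2(normalized count + 1) the gap was 4.54 for SESA1, 4.42 for SESA2, 3.69 for SESA3, 1.19 for CRA1, 1.29 for OLEO2 and 0.76 for RD20. Of 19409 genes with a mock mean of at least 10, 740 were at least 2-fold apart (3.81%), and 10, SESA1 among them, were as far apart as SESA1. The median gap of the 19409 genes, shallower over deeper library, was 0.0084 on this scale. All 6 dry seed markers moved the same way: the sum of EM1, EM6, PER1, TIP3;1, TIP3;2 and M17, late embryogenesis, peroxiredoxin and seed vacuole membrane transcripts, was 110 and 328 normalized counts in the mock libraries. That sum was 1289 and 1459 under ABA, 840 and 497 under PA, and 154 and 256 under DPA, and none of the 6 was at 0 in any library. The shallower library was also higher for 9 of the 10 genes and 5 of the markers with ABA. With DPA it was higher for 8 of the 10 genes and all 6 markers. With PA it was the deeper library that held more, for 9 of the 10 genes and all 6 markers. Of these markers all but M17 were called higher with ABA in the authors' deposited table, where 10.3% of all genes tested were. EM1 and EM6 were also called higher with PA there, where 1.18% of all genes tested were. Their log2 fold changes with PA were 2.38 (adjusted p 0.0024) and 2.77 (adjusted p 6.48e-05, DESeq). The part of the markers in the values of the 10 genes was not tested.

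**Figure D2:**
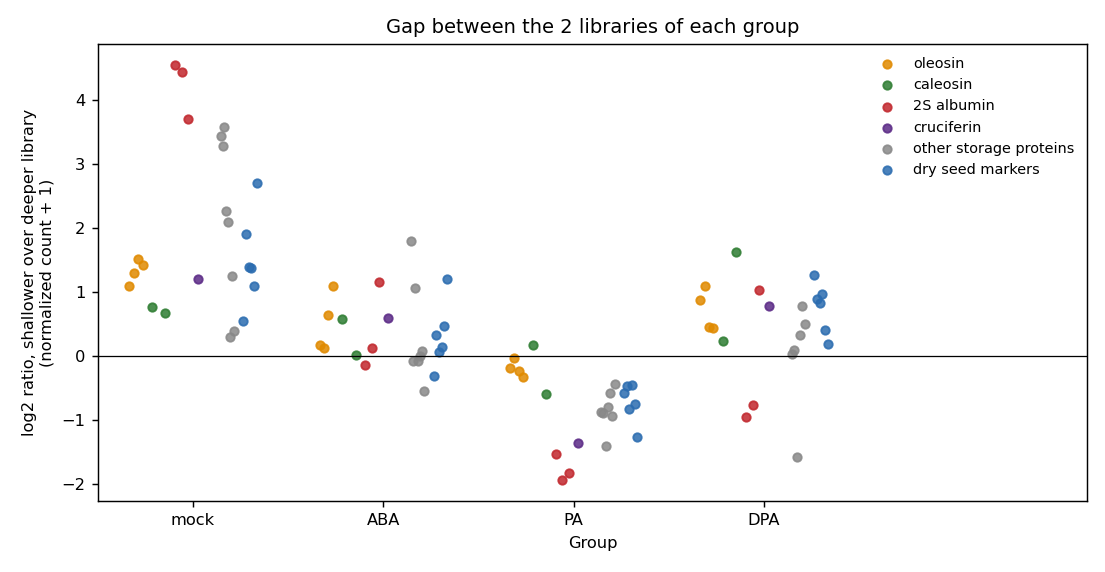
Each point is 1 gene, placed at the log2 ratio of its normalized count plus 1 in the shallower over the deeper library of a group, for the 10 genes, other storage proteins and dry seed markers that had reads in that group. The 10 genes all lie above 0 in mock, SESA1 at 4.54 being the highest, and 9 of the 10 lie below 0 under PA.

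With PA, OLEO2 and RD20 rose and none of the 10 genes fell in the authors' deposited table, where 1.18% of 23985 genes tested were called higher and 0.146% lower. The limma fit called RD20 alone of the members that it tested, where it called 1.84% of genes higher. The median log2 fold change of the 10 genes was 0.37, beside -0.01 over all genes. Both PA libraries lay above both mock libraries for OLEO1, OLEO2, RD20 and CLO1 and below them for none. Among genes with a mean of at least 10, 19.7% had both PA libraries above mock and 19.5% had both below it. OLEO3, CLO1 and SESA3 averaged less than 10. The comparisons with ABA and PA share their mock libraries, so each gene's values are given side by side and no likeness between them is counted.

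DPA gave no call among the 10 genes. With DPA 0.0125% of 23970 genes were called in either direction in the authors' deposited table, and none of these 10 had a p under 0.05 before adjustment. The limma fit likewise called 0 of the 7 that it tested and 0% of all genes, and 0 of the 7 had an unadjusted p under 0.05. All 10 genes had DPA libraries that overlapped with mock. Among genes with a mean of at least 10, 16.1% had both DPA libraries above mock and 17.1% had both below it. OLEO3, CLO1 and SESA3 averaged less than 10 and are not among those genes. The log2 fold changes of the more abundant ones in the authors' deposited table were -0.04 for OLEO1, -0.07 for OLEO2, 0.13 for RD20 and 0.05 for CRA1. In the limma fit the 95% interval of the DPA difference was -0.39 to 0.74 for RD20, -0.81 to 0.80 for OLEO1 and -0.95 to 0.90 for OLEO2, on the log2 scale, which leaves room for rises of the oleosins smaller than those with ABA.

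Between compounds, RD20 separated all 3, and OLEO1 and OLEO2 separated ABA from DPA. These 3 comparisons used limma with all 4 groups, in the 7 genes that reached a mean of 10, and p-values were adjusted over all 19617 genes tested. PA against ABA gave 1 call among these 7, RD20, where 12.6% of all genes were called lower with PA than with ABA. DPA against ABA gave 3, RD20, OLEO1 and OLEO2, where 18.6% were called lower. DPA against PA gave 2, RD20 and OLEO2, where 2.44% were called lower.

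RD20 was lower with PA than with ABA by a log2 difference of -3.32 (95% interval -3.88 to -2.75, adjusted p 2.94e-05, limma). With DPA it was lower than with ABA by -4.63 (-5.20 to -4.07, adjusted p 1.32e-06) and lower than with PA by -1.31 (-1.88 to -0.75, adjusted p 0.023). RD20 was thus 9.96-fold lower with PA than with ABA and a further 2.49-fold lower with DPA than with PA. The part of the chemical differences between the compounds in these steps was not tested. The DPA against PA call was lost without either PA library or either DPA library, with adjusted p-values of 0.074 to 0.15.

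For OLEO1 and OLEO2 the difference between PA and ABA was smaller than for RD20 and did not pass the test. The log2 differences were -0.75 (95% interval -1.55 to 0.05, adjusted p 0.18) and -0.50 (-1.42 to 0.42, adjusted p 0.45), which does not show that the compounds act alike on them. In a fit of only the ABA and PA libraries, which are close together for these genes, both were called lower with PA, with adjusted p-values of 0.0030 and 0.0087. DPA was lower than ABA by -1.88 for OLEO1 (-2.68 to -1.08, adjusted p 0.0028) and by -2.30 for OLEO2 (-3.23 to -1.38, adjusted p 0.0020). DPA was also lower than PA for OLEO2, by -1.80 (-2.72 to -0.88, adjusted p 0.045), a call lost without either ABA library, either PA library or the deeper DPA library, with adjusted p-values of 0.083 to 0.24. For OLEO1 the value of DPA against PA was -1.13 with an adjusted p of 0.12.

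OLEO4 had a value of 1.66 for PA against ABA (95% interval 0.42 to 2.91, adjusted p 0.065, limma), which was not called. Leaving out either mock library does not move this value, since mock does not enter it, and only changes the shared spread. The value rested on the same 11 reads with ABA as the comparison with mock. The intervals for SESA1, SESA2 and CRA1 all spanned 0 in the 3 comparisons, and that of SESA1 for PA against ABA ran from -2.93 to 2.35 on the log2 scale. All 4 groups, the wide mock pair among them, share 1 estimate of the spread in this fit.

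**Figure D3:**
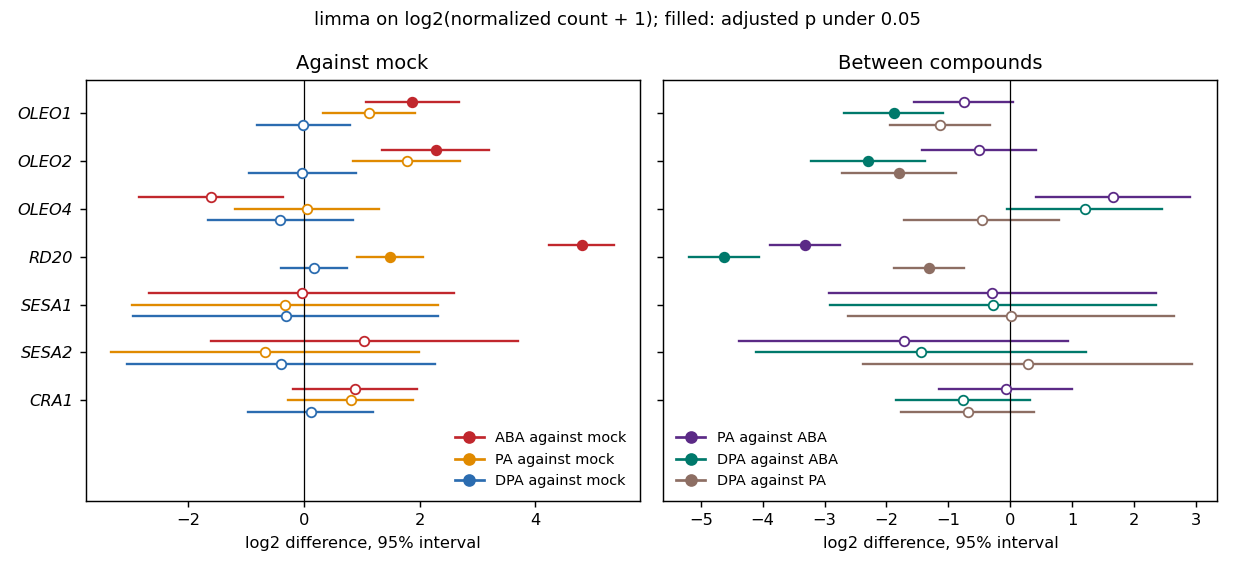
Points are limma log2 differences on the scale log2(normalized count + 1) with 95% intervals for the 7 genes that reached a mean of 10, against mock on the left and between compounds on the right, filled where the adjusted p was under 0.05. RD20 is filled in all 3 comparisons of compounds, from -4.63 to -1.31, whereas the intervals of SESA1, SESA2 and CRA1 cross 0 throughout.

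Levels were ordered between genes per 1000 exon bases. In mock, CRA1 was highest with 334 and 765 normalized counts per 1000 bases, apart from the next gene. OLEO1, OLEO2, SESA1, RD20, SESA2, SESA3, OLEO4, OLEO3 and CLO1 followed, and each of these overlapped with its neighbour in the order. With ABA, RD20 led with 1428 and 2124, followed by CRA1 with 760 and 1146, OLEO2 with 304 and 331 and OLEO1 with 232 and 262, each apart from the next. With PA the order was CRA1, OLEO2, RD20 and OLEO1, again each apart from the next. With DPA, CRA1 was followed by RD20, OLEO1 and OLEO2, which overlapped with each other in the order as they did in mock.

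Of 4 other oleosins, AT3G01570 and AT2G25890 rose with ABA in the authors' deposited table, by 1.71 (adjusted p 0.039) and 2.17 (adjusted p 3.90e-07) on the log2 scale. There 10.3% of all genes tested were called higher with ABA and 5.12% lower. All 877 exon bases of AT2G25890 lie within the span of AT2G25880 on the other strand, introns counted. How many of them meet exons of AT2G25880 was not computed, so the source of the AT2G25890 reads is uncertain. The other oleosins AT3G18570 and AT1G48990 had at most 10 reads in any group. Of 5 other caleosins none was called. The ABA values reached from -0.79 for AT1G70680 to 3.31 for AT5G55240, annotated as peroxygenase 2. These rested on 1 read with ABA against 2 in mock and on 20 against 2. CLO4 had more reads, 176 in mock and 184 with ABA. Its log2 fold change was -0.02 with ABA and 0.47 with PA. AT1G23240 and AT1G23250 were listed at 0 in all groups.

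Among 9 other storage protein genes, the cupin family genes AT2G18540, AT2G28490 and AT4G36700 rose with ABA and none fell. Their log2 fold changes in the authors' deposited table were 2.57 (adjusted p 1.70e-10), 1.73 (adjusted p 9.26e-08) and 1.21 (adjusted p 0.032). Of all genes tested with ABA, 10.3% were called higher there and 5.12% lower. AT2G18540 also rose with PA, by 1.67 with an adjusted p of 0.025. The classical storage genes SESA4, SESA5, CRB, CRC and PAP85 passed no test. CRC, a cruciferin, had 64.4 and 312 normalized counts in the mock libraries and 277 and 582 under ABA, a gap between mock libraries in the same direction as that of CRA1.

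Of 9 other proteins of lipid droplets 5 rose with ABA and none fell, with a median log2 fold change of 2.51 over the 7 tested. Over all genes tested with ABA, 10.3% were called higher and 5.12% lower. DOX1, an alpha-dioxygenase, rose by 4.33 with ABA (adjusted p 1.01e-57) and by 2.82 with PA (adjusted p 1.78e-77) in the authors' deposited table. AT1G67360 and AT2G47780, annotated as rubber elongation factor proteins, rose by 2.81 and 3.60 under ABA, and OBAP1A, an oil body associated protein, by 2.51. AT5G16550 rose by 0.79 under ABA. AT1G67360 and OBAP1A also rose with PA, by 0.90 and 1.91.

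**Figure D4:**
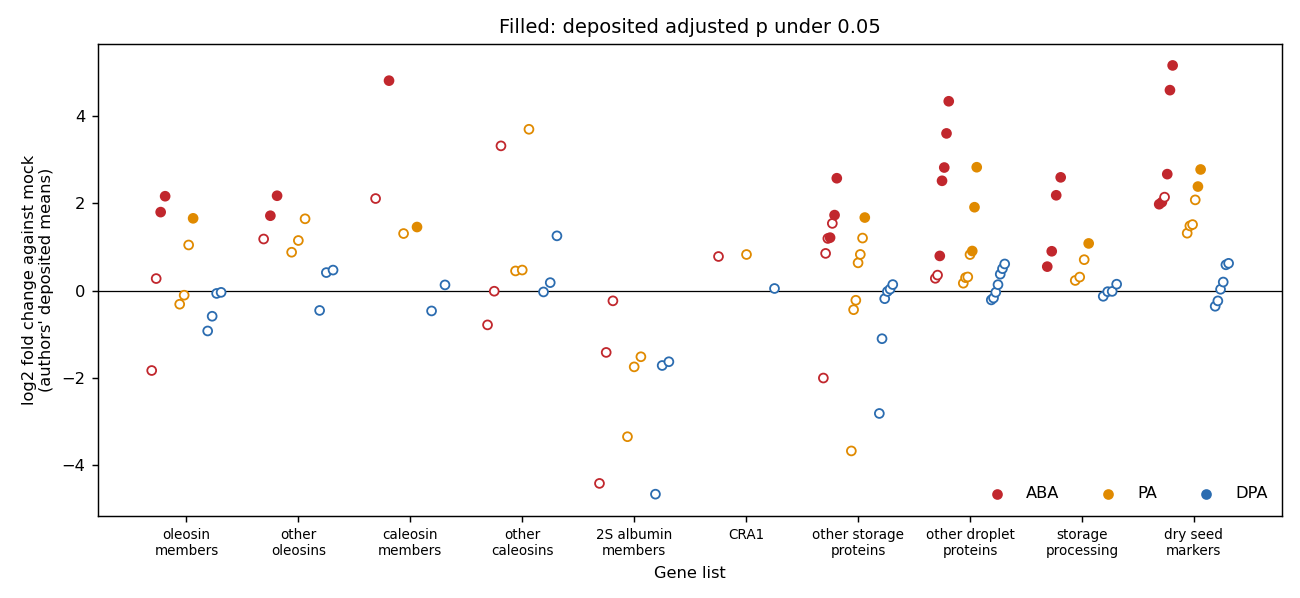
Each point is the log2 fold change of 1 gene against mock from the authors' deposited means, by gene list and compound, filled where the deposited adjusted p was under 0.05; genes at 0 in either group are not drawn. The 2S albumins are all open, whereas 5 of the other droplet proteins and all 4 storage processing genes are filled with ABA, and no point is filled with DPA.

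Among the seed regulators, ABI5 rose with ABA by 3.22 (adjusted p 1.70e-21) and bZIP25, another bZIP factor, by 0.42 (adjusted p 0.049) in the authors' deposited table, and the other 10 tested were not called. The share called higher over all genes tested with ABA was 10.3%. ABI3 had a log2 fold change of 1.61 with an adjusted p of 0.064. With PA none of the 13 tested was called, the values reaching from -0.87 for LEC2, a B3 factor of seed development, to 1.28 for ABI3. These rested on 2 reads with PA against 3 in mock for LEC2 and on 48 against 18 for ABI3. LEC1 and ABI4 were listed at 0 in all groups.

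The genes whose 3 log2 fold changes lay nearest to those of OLEO1, OLEO2 and RD20 were sought among 16414 others that averaged 50 or more normalized counts. Likeness was the straight-line distance over the 3 comparisons with mock, which share their mock libraries. For OLEO1 these were AT2G40435, GORK and AT2G28490, at distances of 0.16, 0.21 and 0.23. For OLEO2 they were M17, AT4G21020 and PER1, at 0.31, 0.32 and 0.35, of which M17 and PER1 are among the dry seed markers. For RD20 they were AT5G40790, RD26 and AT2G21820, at 0.26, 0.47 and 0.47.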

How the data were processed

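Polyadenylated RNA of 8 whole-seedling libraries was read as single reads of 50 bases. The submitters' processing notes name the genome TAIR10 and, without roles, DESeq 1.8.3, TopHat 1.4.1 and HTSeq. The authors deposited a mean per group, per the file headers, which is a signal called normalized count here: the spacing of its values shows reads scaled by 1 size factor for each library. Fold changes in the deposited tables are ratios of treated to mock means, and their log2 was taken here. P-values, raw and adjusted, are those the authors deposited, taken as DESeq's from the submitters' processing notes. They set the difference between groups against a modelled spread of biological duplicates and do not give the gap between a gene's own libraries.

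Because a mean adds whole reads in steps of 2 sizes, the reads of both libraries could be solved for, in 100% of the values above 0. Replicate numbers of these libraries are unknown. Size factors, deeper library first, were 0.979 and 0.917 for mock, 1.15 and 0.816 for ABA, 1.17 and 0.855 for PA, and 1.00 and 0.968 for DPA. Rows that name no gene (48.5% to 48.8% of the normalized total) stayed out of all tests. Main calls against mock are the authors' adjusted p under 0.05. Compounds were compared with limma 3.58.1 in R 4.3.3 (trend, 4 groups in 1 fit, log2 of the normalized count plus 1, a mean of at least 10, Benjamini-Hochberg over 19617 genes, 4 residual and 5.37 prior degrees of freedom). Recovery and fit were checked on simulated data with the same spread setting for all genes. Mock duplicates as far apart as those of the albumins were not simulated. Counting intervals are exact binomial at 95% and cover counting error only, since the reads carry no molecular identifiers. Positions and sequences come from TAIR10.1, and the tables give loci without coordinates. A further upstream sequence is not reported here.

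The members and gene lists were chosen with earlier results of these data known. All members are named; of other lists, genes called against mock and, without a call, the highest and lowest value. Other uncalled genes given as examples, such as CRC, were added after their values were seen. Genes of like pattern are the 3 nearest for each member with a mean of at least 50 and a call. Alternatives were another test, threshold, scaling, pseudocount or minimum mean, a fit of 2 groups, and leaving out each library.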

Additional observations from a re-analysis of the deposited data

How the results depend on the processing

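With ABA the 3 calls stayed at 3 or 4 under every setting that kept all libraries, and without 1 library they ranged from 3 to 6 (5 without the deeper mock library, 6 without the shallower). With PA the authors' 2 calls became 1 in every limma setting that kept all libraries, RD20 alone, and 0 to 3 without 1 library. With DPA the count was 0 throughout. PA against ABA gave 4 calls instead of 1 in a fit of only the 2 groups compared, and 1 to 2 without 1 library. DPA against ABA gave 1 call instead of 3 by the difference of deposited log2 fold changes, 5 in the fit of 2 groups, and 3 to 3 without 1 library. DPA against PA gave 0 calls instead of 2 at an adjusted p under 0.01, 0 by the difference of deposited values and 1 with no minimum mean, and 0 to 3 without 1 library. The cause of these shifts was not tested.

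Single values changed sign as follows. SESA2 with ABA, -0.24 in the authors' deposited table, was 1.05 in limma (also with no minimum mean and with 2 groups), 1.04 with median-ratio factors, 0.96 with upper-quartile scaling, and 1.16 and 0.66 with pseudocounts of 0.5 and 4. OLEO4 with PA, -0.11, was 0.056 in limma (also with no minimum mean and with 2 groups), 0.060 with median-ratio factors, 0.061 with upper-quartile scaling, and 0.062 and 0.030 with pseudocounts of 0.5 and 4. SESA1 with ABA was 0.022 with a pseudocount of 0.5. OLEO1 with DPA was 0.00053 with upper-quartile scaling. CRA1 for PA against ABA was 0.0503 by the difference of deposited values and 0.021 with upper-quartile scaling. SESA1 for DPA against PA was -0.11 by the difference of deposited values and -0.0080 with a pseudocount of 4. None of these values was called.

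Without 1 library at a time, values for ABA against mock ranged from -2.31 to 2.23 for SESA1 and from -1.16 to 3.26 for SESA2. For PA against mock they ranged from -0.65 to 0.76 for OLEO4, from -2.60 to 1.95 for SESA1 and from -2.89 to 1.54 for SESA2. For DPA against mock they ranged from -0.55 to 0.54 for OLEO1, from -0.67 to 0.62 for OLEO2, from -1.11 to 0.30 for OLEO4, from -0.21 to 0.55 for RD20, to 0.27 in a single fit for CLO1, from -2.59 to 1.96 for SESA1, from -2.61 to 1.82 for SESA2 and from -0.48 to 0.72 for CRA1. For PA against ABA they ranged from -1.06 to 0.48 for SESA1 and from -0.75 to 0.60 for CRA1. For DPA against ABA they ranged from -0.76 to 0.20 for SESA1. For DPA against PA they ranged from -0.76 to 0.78 for SESA1 and from -0.69 to 1.25 for SESA2.

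Upper-quartile scaling moved the median of all genes by -0.088 with ABA. No paired analysis was possible because the tables hold group means and the recovered libraries carry no replicate number. A fit that leaves out 1 library takes the lone library of that group to vary like the others. OLEO3, with 5 to 11 reads over a group, is limited by depth.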

Other observations

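The 4 listed genes that process and sort seed storage proteins all rose with ABA in the authors' deposited table. There 10.3% of all genes tested were called higher with ABA. Beta-VPE, alpha-VPE and gamma-VPE, vacuolar processing enzymes that cut storage protein precursors, rose by 2.59, 2.18 and 0.90 on the log2 scale, with adjusted p-values of 6.67e-39, 1.57e-08 and 1.22e-08 (DESeq). VSR1, a sorting receptor for storage proteins, rose by 0.55 with an adjusted p of 5.13e-04. Beta-VPE had 109 and 133 normalized counts in the mock libraries, 686 and 773 under ABA, 289 and 222 under PA and 107 and 132 under DPA, so the ABA and PA libraries lay above mock. It was the only gene of these 4 called with PA (1.08, adjusted p 0.0080), and none was called with DPA.

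Of 14 genes of oil synthesis and breakdown, LACS7 and KAT2, a long-chain acyl-CoA synthetase and a thiolase of peroxisomal beta-oxidation, rose with ABA and none fell in the authors' deposited table. Their log2 fold changes were 0.67 (adjusted p 0.0022) and 0.83 (adjusted p 1.90e-09). The other 11 tested were not called, and FAE1, the elongase of seed fatty acids, was listed at 0 in all groups. The share called higher over all genes tested with ABA was 10.3%. With PA none of the 13 tested was called, the values reaching from -0.08 for MLS, malate synthase, to 0.28 for DGAT3, a diacylglycerol acyltransferase. Of the 3 leaf and 3 root transcripts used to check the tissue, PYK10 and IRT1, a root iron transporter, were called lower with ABA in the authors' deposited table, PYK10 by -0.45 and IRT1 from a mean of 84.7 to 0. The limma fit called IRT1 lower as well but not PYK10 (-0.45, adjusted p 0.082).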
